A study of Mus musculus with 3 samples.

Results

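The cytosolic ribosomal protein genes were taken as the protein-coding RefSeq genes of GRCm38 whose symbols are Rpl or Rps plus a number, together with Rplp0, Rplp1, Rplp2 and Rpsa, with the ribosomal S6 kinases (symbols beginning Rps6k) left out. This gave 91 of 21883 protein-coding genes. Of these, 77 carry the standard symbols of structural ribosomal proteins, called the usual set here, and 14 are paralogues, retrogenes and 1 gene for a binding partner, Rps19bp1, which is no ribosomal protein. By symbol, 53 belong to the large subunit, 35 to the small subunit and 3 to the stalk, the flexible arm of the large subunit that recruits elongation factors.

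Chromatin accessibility was assayed by ATAC-seq, in which a transposase cuts exposed DNA, on cells digested from the apical part, the root-forming end, of first molars of C57BL/6 mice at PN7.5 (postnatal day 7.5). There was 1 mutant library (Gli1-CreER;Arid1a fl/fl) and there were 2 control libraries (Arid1a fl/fl), each from 5000 cells. The floxed allele is thus shared by both groups, and the label of every library gives tamoxifen at PN3.5 at 1.5 mg per 10 g body weight. Gli1-CreER is active in cells that express Gli1, so that in the mutant the remodelling subunit Arid1a is targeted in those cells and their descendants and not in every cell of the digest. The values come from a single union list of 13500 windows of 201 bp and from the sites of the Plagl1 motif in them; Plagl1, also called Zac1, is a zinc finger transcription factor. The tables used here hold no value per library, so no comparison of mutant with control and no replicate error could be given, and the depth is unknown. A window shows that a region is on the list, not how open it was in any library, and a motif site is a match of letters, not a measurement of binding. Windows within 1 kb of a gene end were present at 5 of 12 markers of dental mesenchyme and odontoblasts (Barx1, Col1a1, Col1a2, Msx1 and Msx2). They were absent at the odontoblast genes Dspp and Dmp1 and at Gli1, Lhx6, Lhx8, Nes and Pax9. This share of mesenchyme and odontoblast markers, 41.7%, was no higher than the 46.6% of all protein-coding genes. Dental epithelium markers had a window in 1 of 8 cases, endothelial markers in 1 of 4, immune markers in 0 of 6 and erythroid markers in 0 of 4.

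Ribosomal proteins are made in nearly every cell, in matched amounts, and together with ribosomal RNA they form the subunits that translate mRNA. Their genes are short, are transcribed from compact promoters in CpG islands, and begin in a pyrimidine-rich stretch at the start of the mRNA, the 5′ terminal oligopyrimidine tract, through which growth signals control their translation. Many of them carry small nucleolar RNAs (snoRNAs), guides for the modification of ribosomal RNA, in their introns, and mammalian genomes hold many processed pseudogenes copied from their mRNAs.

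The sequences that the results turn on are given first. Of the 36 Plagl1 motif sites in windows of these genes, 12 scored at or above the upper quartile (6.25) of all 5753 deposited sites. These are shown because they are the closest matches to the motif, 5′ to 3′ on the strand of the motif in mm10 coordinates, with bases 4 to 7 of the motif in capitals.
Rps6, chr4:86857362-86857371, plus strand, score 7.27: aaaGAGGccc
Rpl7l1, chr17:46782682-46782691, plus strand, score 6.73: agaGAGGccc
Rpl35, chr2:39005200-39005209, plus strand, score 6.66: tggGAGGccc
Rpl28, chr7:4793004-4793013, plus strand, score 6.66: tgtGAGGcct
Rpl11, chr4:136053157-136053166, minus strand, score 6.64: aatGGGGctc
Rpl35a, chr16:33056536-33056545, plus strand, score 6.60: tttGGGGccc
Rps25, chr9:44407433-44407442, minus strand, score 6.56: aatGGGGgcc
Rpl15, chr14:18271069-18271078, minus strand, score 6.48: caaGAGGcac
Rpl36, chr17:56613493-56613502, minus strand, score 6.46: catGGGGccg
Rpl39, chrX:37085287-37085296, plus strand, score 6.46: catGGGGccg
Rps18, chr17:33955646-33955655, minus strand, score 6.46: cagGAGGcct
Rpl11, chr4:136053194-136053203, minus strand, score 6.27: cgtGGGGcac

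The promoter stretches of the 3 genes with the highest-scoring sites run from 200 bases before the listed start to 20 bases from it on (RefSeq, GRCm38.p6), and the site is in capitals. They are written 5′ to 3′ on the strand of the gene, and each site lies on the other strand, so its letters appear as the reverse complement.
Rps6, chr4:86857348-86857567, minus strand: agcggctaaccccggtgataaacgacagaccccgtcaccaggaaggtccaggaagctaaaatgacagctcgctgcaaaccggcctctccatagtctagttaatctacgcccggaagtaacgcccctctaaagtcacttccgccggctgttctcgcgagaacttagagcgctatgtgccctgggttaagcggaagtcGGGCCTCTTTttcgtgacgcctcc
Rpl7l1, chr17:46782637-46782856, minus strand: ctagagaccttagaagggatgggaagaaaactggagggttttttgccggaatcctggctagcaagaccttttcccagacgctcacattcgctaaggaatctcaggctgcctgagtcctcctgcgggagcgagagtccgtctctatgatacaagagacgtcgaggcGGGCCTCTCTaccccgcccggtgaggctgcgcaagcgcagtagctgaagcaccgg
Rpl35, chr2:39005112-39005331, minus strand: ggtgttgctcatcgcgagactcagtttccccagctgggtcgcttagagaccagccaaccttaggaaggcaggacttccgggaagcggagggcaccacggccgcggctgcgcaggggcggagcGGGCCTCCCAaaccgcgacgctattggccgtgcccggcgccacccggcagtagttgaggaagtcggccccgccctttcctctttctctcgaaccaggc

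The same stretch follows for the promoters whose windows had the most CpG (Rpl36al and Rpl31) and the least (Rpl10 and Rpl4) among the genes with a listed start, and for Rpl10l, the first of the genes without a window in alphabetical order. Here the capitals mark CpG dinucleotides, of which the stretches hold 32 in Rpl36al, 18 in Rpl31, 12 in Rpl10, 6 in Rpl4 and 9 in Rpl10l. The stretches are not the windows, which held 31 CpG in Rpl36al, 28 in Rpl31, 8 in Rpl10 and 9 in Rpl4. The stretch of Rpl10 does not overlap its window, and those of Rpl36al, Rpl31 and Rpl4 overlap theirs only in part.
Rpl36al, chr12:69184048-69184267, minus strand: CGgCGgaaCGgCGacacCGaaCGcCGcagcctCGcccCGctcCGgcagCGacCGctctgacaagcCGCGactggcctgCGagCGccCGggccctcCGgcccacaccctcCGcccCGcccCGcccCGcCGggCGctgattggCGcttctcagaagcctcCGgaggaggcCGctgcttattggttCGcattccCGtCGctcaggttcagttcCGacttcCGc
Rpl31, chr1:39367651-39367870, plus strand: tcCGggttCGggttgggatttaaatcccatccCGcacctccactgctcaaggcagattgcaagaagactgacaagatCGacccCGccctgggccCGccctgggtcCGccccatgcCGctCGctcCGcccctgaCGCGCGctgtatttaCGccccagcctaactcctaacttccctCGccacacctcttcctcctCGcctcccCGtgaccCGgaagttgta
Rpl10, chrX:74270616-74270835, plus strand: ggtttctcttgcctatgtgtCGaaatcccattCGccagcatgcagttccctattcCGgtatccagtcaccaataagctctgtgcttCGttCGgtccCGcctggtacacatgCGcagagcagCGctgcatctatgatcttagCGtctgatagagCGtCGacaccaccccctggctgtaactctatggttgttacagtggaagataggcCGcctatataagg
Rpl4, chr9:64173187-64173406, plus strand: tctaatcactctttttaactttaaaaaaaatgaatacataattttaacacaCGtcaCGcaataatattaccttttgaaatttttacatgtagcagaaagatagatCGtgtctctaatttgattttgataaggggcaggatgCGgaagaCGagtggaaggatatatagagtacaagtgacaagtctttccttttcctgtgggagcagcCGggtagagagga
Rpl10l, chr12:66284382-66284601, minus strand: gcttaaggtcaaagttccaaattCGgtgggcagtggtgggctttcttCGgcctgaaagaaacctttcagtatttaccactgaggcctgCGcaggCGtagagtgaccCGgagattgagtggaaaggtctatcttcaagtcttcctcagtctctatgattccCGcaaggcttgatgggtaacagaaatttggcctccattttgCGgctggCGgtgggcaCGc

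Nearly all structural ribosomal protein genes had an open chromatin window at an end, and most of the 14 genes outside the usual set did not. A window midpoint lay within 1 kb of an end of the gene in 78 of the 91 genes (85.7%, exact Clopper-Pearson 95% interval 76.8 to 92.2, counting error only), beside 46.6% of all protein-coding genes. For the usual set the count was 73 of 77 (94.8%, interval 87.2 to 98.6), and among the other members it was 5 of 14 (35.7%, interval 12.8 to 64.9). Large subunit genes of the usual set had a window in 40 of 43 cases, small subunit genes in 30 of 31, and the stalk genes Rplp0, Rplp1 and Rplp2 in 3 of 3. No test was made of these counts, since genes are no replicates and the files hold no value per library. Gene length differed too: the median was 3175 bp in these genes and 17170 bp in all protein-coding genes. Of the protein-coding genes no longer than the longest member, Rps23rg1 at 16779 bp, 37.5% had a window. This limit lies far above the upper quartile of the members, 4560 bp, so the lengths are not matched.

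**Figure D1:**
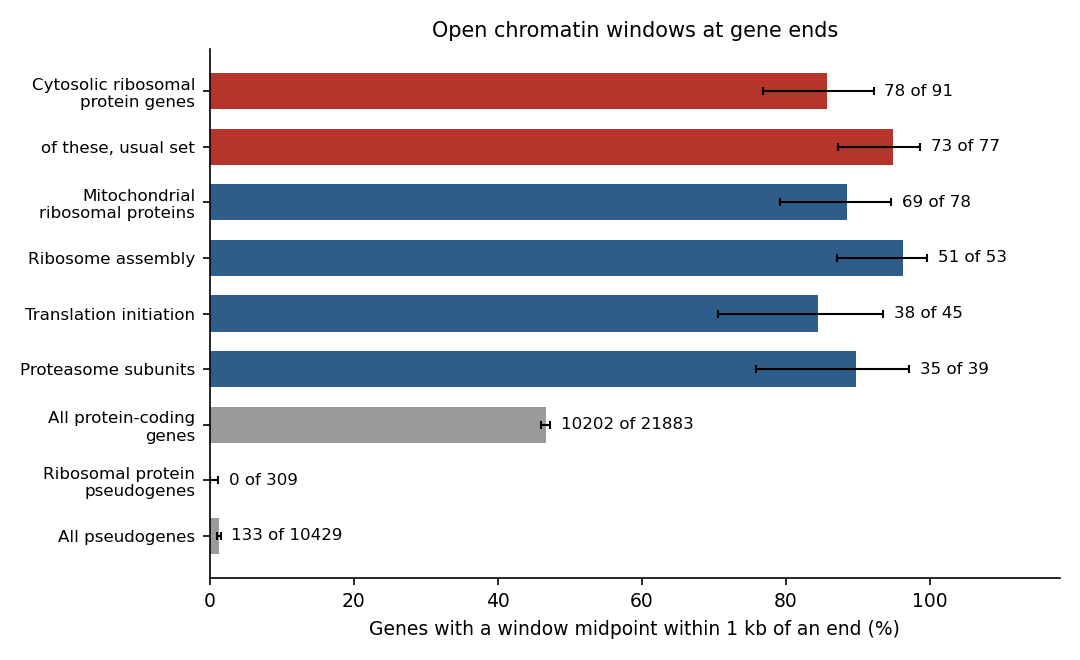
Share of genes (%) with a window midpoint within 1 kb of an end, with exact 95% Clopper-Pearson intervals as bars and the counts beside them. The cytosolic ribosomal protein genes stand at 78 of 91 and their usual set at 73 of 77, next to 69 of 78 mitochondrial ribosomal protein genes and 10202 of 21883 protein-coding genes, and none of 309 ribosomal protein pseudogenes had a window.

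The 13 genes without a window at an end fell into 2 kinds. Of the usual set there were 4, Rpl17, Rpl22, Rpl38 and Rps2, and each had a window further inside the gene, with the midpoint 1685, 1525, 1082 and 1882 bp from the nearest end. The gene intervals of the table can begin well before the start of the main transcript, and measured from the starts that the RefSeq promoter table lists, the window of Rpl22 was centred 235 bp downstream, that of Rpl38 320 bp downstream and that of Rps2 60 bp upstream. Rpl17 had no listed start. Rps27l, a p53-induced paralogue of Rps27, likewise had its window 1460 bp from an end of the interval but 2 bp from a listed start. The limit of 1 kb thus passed between Rpl7, the farthest member inside it at 757 bp, and Rpl38, the nearest outside it at 1082 bp.

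The other 8 genes had no window within 3 kb of either end, a distance at which 83 of the 91 genes had one, beside 51.6% of all protein-coding genes. They were Rpl10l and Rpl39l, paralogues known for expression in testis, the retrogenes Rpl37rt, Rps27rt and Rps23rg1, and Rpl32l, Rpl31-ps12 and Rpl34-ps1, of which the last pair carry pseudogene symbols although RefSeq lists them as protein-coding. Of the 14 members outside the usual set, Rpl22l1, Rpl36al, Rpl7l1 and Rps19bp1 had a window between 2 and 265 bp from an end. The muscle paralogue Rpl3l counted through a window 469 bp from its far end, which lay 19 bp from an end of Msrb1. Its listed start had no window within 1 kb.

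Measured from listed starts, every gene of the usual set that could be placed had a window. A listed start was found for 70 members, and all 57 of the usual set among them had a window within 1 kb of it, against 5 of the 13 others (Rpl22l1, Rpl36al, Rpl7l1, Rps19bp1 and Rps27l). Over all protein-coding genes with a listed start the share was 50.6%. Counting an end or a listed start, 76 of the 77 genes of the usual set had a window, beside 50.7% of all protein-coding genes. The exception was Rpl17, whose nearest window lay inside the gene.

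No pseudogene named after these genes had a window. Of 309 pseudogenes with Rpl, Rps or the stalk symbols, 0 had a window at 1 kb or less from an end, which allows a share of up to 0.971% by 3 counts of the total, or 1.19% by the exact Clopper-Pearson interval. Over all 10429 pseudogenes the share was 1.28%, or 133 of them, and the difference was not tested.

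Most windows lay close to an end of the gene. The nearest window of the 78 genes had its midpoint a median of 103 bp from a gene end (quartiles 45.3 and 195 bp), beside 137 bp over all protein-coding genes with a window. It lay within 50 bp of the end in 22 of 78 genes (28.2%, beside 19.6% of all protein-coding genes with a window) and within 250 bp in 67 (85.9%, beside 74.4%). The closest were Rps19bp1 at 2 bp, Rpl15 at 3, Rpl41 at 5, Rpl28 at 7 and Rps16 at 9 bp, and the farthest were Rpl7 at 757, Rpl19 at 753, Rpl29 at 562, Rpl3l at 469 and Rpl10 at 346 bp. For Rpl19 this window lay 278 bp from an end of Cacnb1, and a further window was centred 57 bp upstream of its own listed start.

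Strand could be read for the genes with a listed start. Of the 62 with a window within 1 kb of it, 36 (58.1%) had a window that covered the start itself, that is with the midpoint at most 100 bp away, beside 48.7% of the 8859 protein-coding genes with such a window. The midpoint lay downstream of the start in 31 of 62 (50%), beside 60.4% of those protein-coding genes, and its median position was 0 bp, beside 42 bp downstream. The range ran from 346 bp upstream in Rpl10 to 320 bp downstream in Rpl38. A window covered the start in 20 of 35 large subunit genes and in 16 of 25 small subunit genes.

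**Figure D2:**
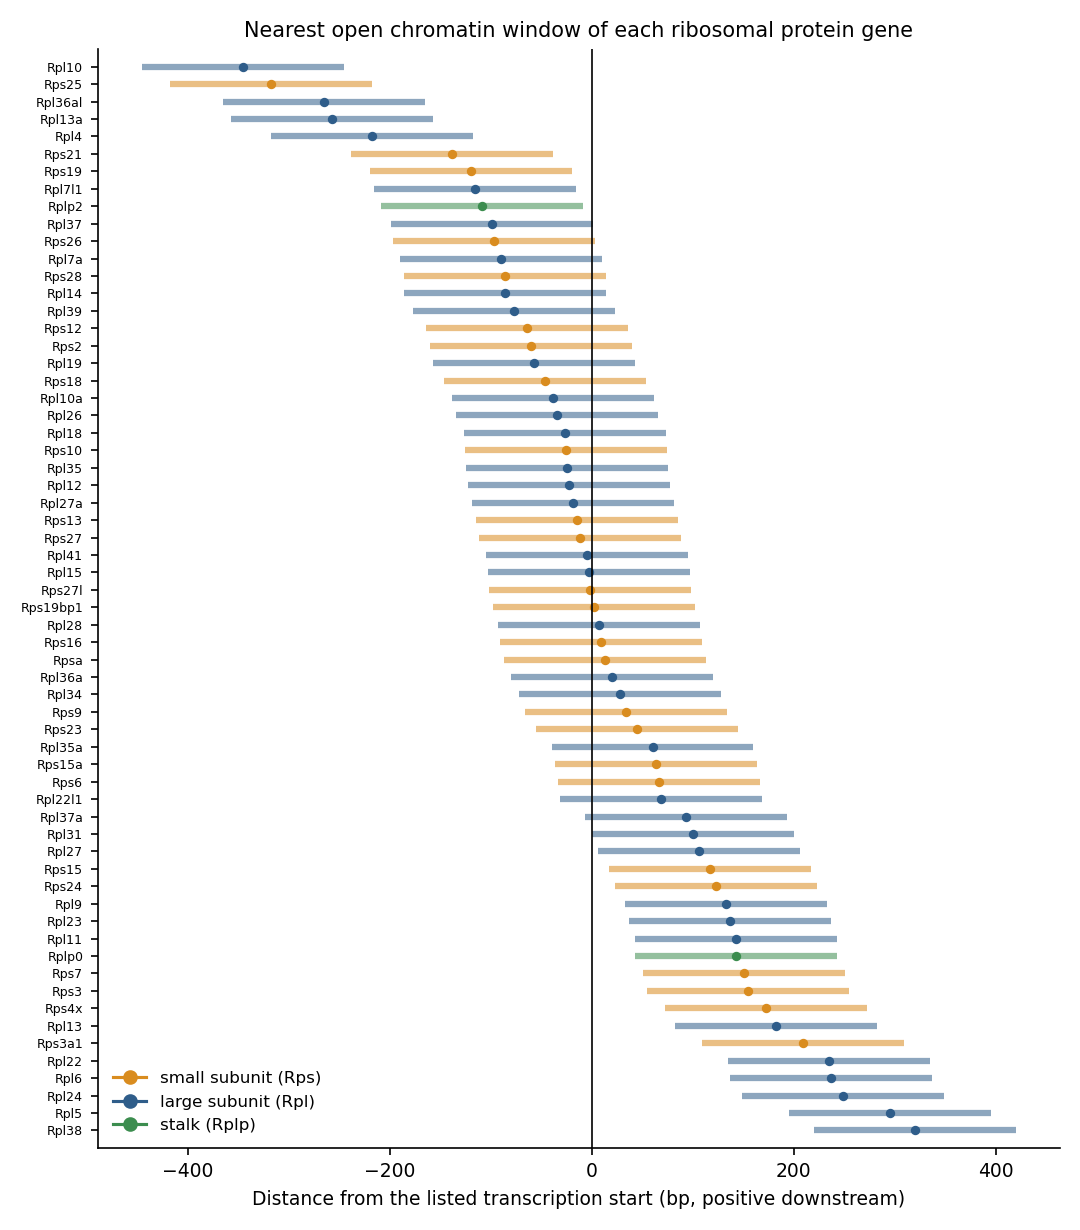
Position of the nearest window of each of the 62 ribosomal protein genes with a window within 1 kb of a listed start, in bp from that start (positive downstream). Points are midpoints and bars the 201 bp windows, coloured by subunit; the windows run from 346 bp upstream in Rpl10 to 320 bp downstream in Rpl38, and 36 of them cover the start.

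A single window per gene was the rule. Of the 78 genes, 74 had 1 window at an end and 4 had 2 (5.13%, beside 3.61% of all protein-coding genes with a window). The 4 were Rpl4, Rpl36, Rpl41 and Rps18, and in Rpl4, Rpl41 and Rps18 the second window lay nearer an end of a neighbouring gene: 97 bp from Snapc5, 313 bp from Zc3h10 and 180 bp from B3galt4. In Rpl36 the closer window lay 294 bp from its end and 29 bp from an end of Micos13, and the second 742 bp from its end and 793 bp from an end of Lonp1.

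Many windows lay near an end of a neighbouring gene too. Of the 82 windows of these genes, 22 (26.8%) also lay within 1 kb of an end of another protein-coding gene, beside 16.0% of the 9075 windows at protein-coding gene ends, and in 14 of them the other end was the closer. Close pairs included Rpl12 and Lrsam1, with the midpoint 23 and 35 bp from the ends, Rps27 and the small GTPase gene Rab13 (12 and 55 bp), Rps18 and the vesicle tethering gene Vps52 (46 and 68 bp), Rps28 and the respiratory chain gene Ndufa7 (86 and 76 bp), Rpl7a and the Mediator gene Med22 (32 and 75 bp), and Rpl4 and the kinetochore gene Zwilch (218 and 65 bp). Other neighbours were Nkiras1 beside Rpl15, Cacnb1 beside Rpl19, Iqcg beside Rpl35a, Mgat2 beside Rpl36al, Card6 beside Rpl37, Msrb1 beside Rpl3l, Rdh10 beside Rpl7, Lias beside Rpl9, Pidd1 beside Rplp2, Trappc4 beside Rps25 and Clhc1 beside Rps27a. Some of these pairs were as close, such as Rps27a and Clhc1 (52 and 38 bp) and Rplp2 and Pidd1 (109 and 23 bp). When a window was counted for its nearest protein-coding gene alone, 68 of the 91 genes (74.7%) had one, beside 41.1% of all protein-coding genes.

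SnoRNA genes lay inside 30 of the 91 genes (33.0%), beside 1.70% of all protein-coding genes, with 59 snoRNA genes in all. Rpl4 held 5 of them, and Rpl7a and Rpl13a held 4 each. A snoRNA end lay within 1 kb of 14 of the 82 windows (17.1%), beside 0.298% of the windows at protein-coding gene ends. Among them were Snord43 beside the window of Rpl3, Snord68 beside Rpl13, Snora21 beside Rpl23, Snora3 beside Rpl27a, Snora7a beside Rpl32 and Snord15a beside Rps3. Each of these windows is also that of the host gene, so a window does not separate the snoRNA from its host.

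The windows of ribosomal protein genes were less rich in G and C than windows at gene ends as a whole, as were those of the related gene lists given below. Their median GC content was 62.4% (quartiles 59.3 and 67.7, range 35.3 to 78.1, 82 windows), beside 68.2% (quartiles 62.7 and 73.6) over the 9075 windows at protein-coding gene ends, and 62 of the 82 (75.6%) lay below that median. CpG content was closer, with a median of 9 per 100 base steps (quartiles 7.13 and 11), beside 10 (quartiles 7.5 and 12.5), and 47 of 82 (57.3%) lay below 10. The large subunit had a median GC of 63.2% and CpG of 9, the small subunit 62.4% and 9.25, and the stalk genes 61.7% and 10, differences smaller than the spread between the quartiles.

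Single genes spread widely around these medians. By the nearest window of each gene, GC was high in Rpl7 (78.1%), Rps10 (73.6%), Rpl5 (73.1%) and Rplp0 (72.6%). It was lowest in Rpl4 (35.3%), Rps26 (42.3%), Rpl10 and Rps9 (51.7% each) and Rps27 (53.2%). CpG was high in Rpl36al (15.5 per 100 steps), Rpl31 (14) and Rpl7 (13), and lowest in Rpl10 (4), Rpl4 (4.5) and Rpl27, Rps21 and Rps26 (5 each). The window of Rpl4 was thus AT-rich, and it lay 65 bp from an end of Zwilch and 218 bp from an end of Rpl4. Its promoter stretch above, with a GC content of 35.9%, overlaps this window only in part. The windows of Rpl7 and Rpl36al also lay nearer an end of another gene. That of Rpl7 lay 692 bp from Rdh10 against 757 bp, and that of Rpl36al 174 bp from Mgat2 against 265 bp.

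**Figure D3:**
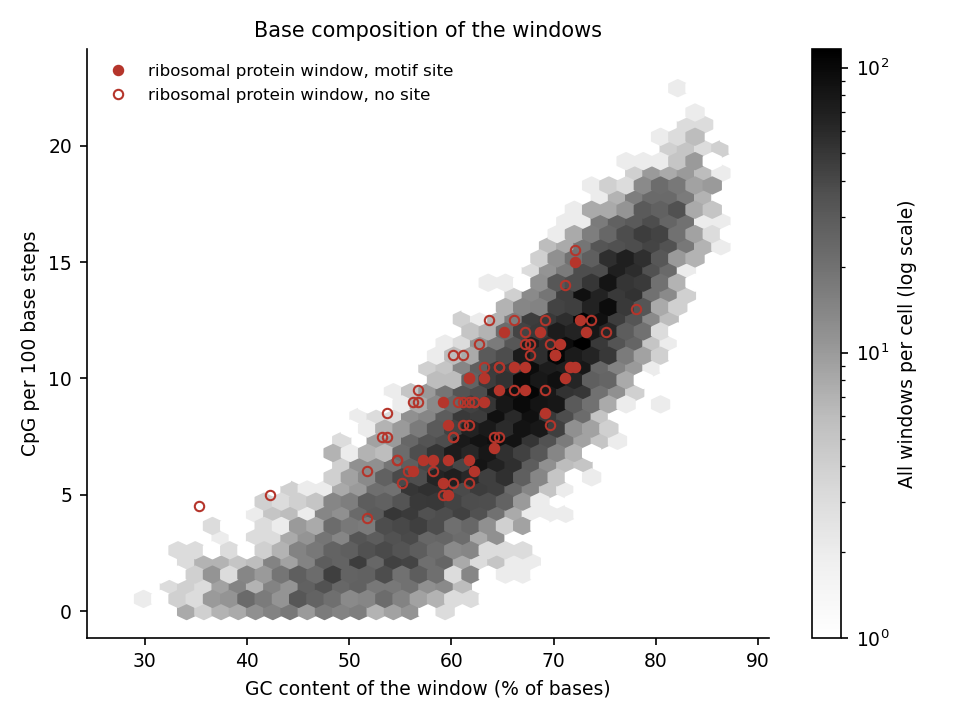
GC content (% of bases) against CpG per 100 base steps for the 82 windows of ribosomal protein genes (red, filled where the window held a Plagl1 motif site) over all 13500 windows (grey cells, shade on a log scale). The red points centre on 62.4% GC and 9 CpG per 100 steps, with Rpl4 alone at 35.3% GC.

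Plagl1 motif sites were about as frequent at these genes as at other genes. Of the 78 genes with a window, 28 had a site in it (35.9%, exact 95% interval 25.3 to 47.6), beside 33.4% of all protein-coding genes with a window, a share within that interval. They comprised 16 of 44 large subunit genes, 9 of 31 small subunit genes and all 3 stalk genes, and 20 genes had 1 site and 8 had 2. Members with a site included Rpl5, Rpl7l1, Rpl11, Rpl13, Rpl14, Rpl15, Rpl19, Rpl27, Rpl27a, Rpl28, Rpl35, Rpl35a, Rpl36, Rpl36a, Rpl39 and Rpl41 of the large subunit, Rps3, Rps6, Rps15, Rps16, Rps18, Rps23, Rps24 and Rps25 of the small subunit, and Rplp0, Rplp1 and Rplp2. Outside the usual set the only gene with a site was Rpl7l1, among 5 with a window. Some of these sites lay in windows nearer an end of another gene. The window of Rps25 lay 152 bp from Trappc4 against 318 bp, and that of Rplp2 23 bp from Pidd1 against 109 bp. That of Rpl19 lay 278 bp from Cacnb1 against 753 bp, and the second window of Rps18, with a site of its own, lay nearer B3galt4.

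Sites followed GC content unevenly. None of the 9 windows of ribosomal protein genes under 55% GC held a site, beside 21.8% of 595 windows at protein-coding gene ends. From 55 to 60% GC, 8 of 15 did, beside 26.2% of 885, from 60 to 65% 7 of 28 did, beside 31.8% of 1655, from 65 to 70% 6 of 16, beside 34.0% of 2074, and from 70% upward 8 of 14, beside 35.7% of 3866. With so few windows in each band, these shares carry wide counting errors and were not tested.

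The 36 sites had a median log-odds score of 5.88 (lowest 5.52, highest 7.27), beside 5.94 over all 5753 sites. The 12 at or above the upper quartile of all sites lay in 11 of the 78 genes (14.1%), beside 9.71% of all protein-coding genes with a window, and the other 24 scored between 5.52 and 6.06. At listed starts, 25 of 62 genes (40.3%) had a site in a window within 1 kb, beside 32.9%. The highest was the site of Rps6, the small subunit protein phosphorylated by S6 kinases downstream of mTORC1, with a score of 7.27, as high as or higher than 98.5% of all deposited sites. This site, shown above, overlaps the listed start of Rps6, with the first base of the motif 5 bp downstream of it on the other strand, and a second site of score 5.83 lay 70 bp downstream. Rpl7l1 followed with 6.73 at 26 bp upstream, Rpl35 with 6.66 at 69 bp upstream and Rpl28 with 6.66 at 39 bp downstream. Rpl11, whose protein binds the p53 inhibitor Mdm2 when ribosome assembly fails, had 2 sites, of 6.64 and 6.27, at 227 and 190 bp downstream. Rpl5, its partner in that binding, had 1 of 5.85 at 364 bp downstream.

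Of the 30 sites within 1 kb of a listed start, 20 lay within 100 bp of it, 21 lay at or downstream of it and 9 upstream, with a median of 49 bp downstream. By strand, 18 of the 32 sites in genes with a listed start matched the strand of the gene. Sites were searched only within 100 bp of a window's centre, so their distances from the start depend on where the windows lay. The same counts were not made over all protein-coding genes, so these positions describe the listed sites only. The 36 sites had 32 different sequences, of which 4 occurred at a pair of genes: catGGGGccg at Rpl36 and Rpl39, aggGAGGcct at Rpl41 and Rps3, cagGAGGccg at Rpl27a and Rpl5, and cccGGGGccc, the lowest in score at 5.52, at Rplp0 and Rps15. In 3 of the 8 genes with 2 sites the sites overlapped on opposite strands, Rpl28 and Rpl35a by 6 bases and Rplp1 by 5, so that these count a stretch of DNA more than once. The sites of Rps3 lay 38 bp apart, those of Rpl11 37 bp, those of Rps6 74 bp and those of Rps23 120 bp, measured between their lower coordinates, and those of Rps18 lay at opposite ends of the gene.

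**Figure D4:**
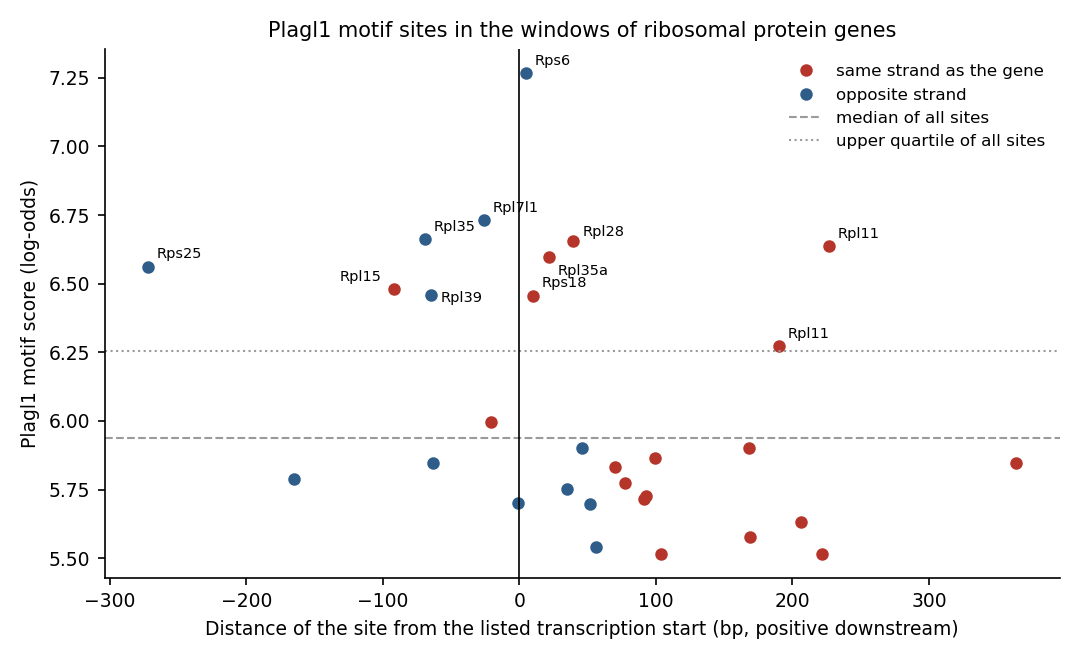
Score of the 30 Plagl1 motif sites within 1 kb of a listed start against distance from that start (bp, positive downstream), coloured by strand relative to the gene, with the median (5.94) and upper quartile (6.25) of all 5753 sites as lines. Sites at or above the upper quartile carry gene names; Rps6 stands highest at 7.27, at the start itself.

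The letters of the promoters were searched for sequence features known from ribosomal protein genes, with 1 RefSeq promoter of 300 bp a gene, 250 bases before the start and 50 from it on, taken at the listed start nearest to a window. Each motif was searched on both strands, none contains another, and matches may share bases. The comparison is with the 8859 protein-coding genes that also had a window within 1 kb of the start. A run of 8 or more C or T on the gene's strand within 20 bases of the start was found in 28 of 62 ribosomal protein genes (45.2%), beside 14.5%. The first base at the listed start was C in 19 (30.6%), beside 14.4%. It was C or T in 28 (45.2%), beside 23.3%, so most listed starts of these genes were A or G. The listed starts are annotated positions, and the base at which transcription began was not measured here. The Ets motif CCGGAAG, bound by GABP among others, was in 24 (38.7%), beside 20.7%, and the Box A motif CTCGCGAGA in 7 (11.3%), beside 1.84%: Rpl10a, Rpl12, Rpl26, Rpl27a, Rps6, Rps19 and Rps28. The Sp motif GGGCGG was in 39 (62.9%), beside 72.4%, and the CCAAT box CCAAT in 20 (32.3%), beside 40.1%. The TATA letters TATAAA were in 6 (9.68%), beside 5.49%, and the E-box CACGTG in 5 (8.06%), beside 10.7%. The YY1 motif AAGATGGCG was in 4 (6.45%), beside 3.68%, and the NRF1 motif GCATGCGC in 3 (4.84%), beside 6.20%. Over all 17491 protein-coding promoters, with or without a window, the run was in 15.4%, a first C in 13.7%, the Ets motif in 12.2%, Box A in 1.03%, the Sp motif in 47.4%, the CCAAT box in 39.0%, TATAAA in 13.1%, the E-box in 7.93%, the YY1 motif in 1.99% and the NRF1 motif in 3.65%. A match is a description of letters, and these shares were not tested.

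Any of the 642 site sequences that occur in the windows of the whole list was found in 24 of the 62 promoters (38.7%), beside 40.9%, and in 2 of the 8 promoters of members without a window at the start, Rpl10l and Rpl3l. Those 8 promoters also differed in composition, with a median of 6.5 CpG in 300 bases, against 22 in the 62 with a window and 23 in all protein-coding promoters with one. Of the 8, the Sp motif was in 1, Rpl10l, and the Ets motif in 1, Rpl39l.

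**Figure D5:**
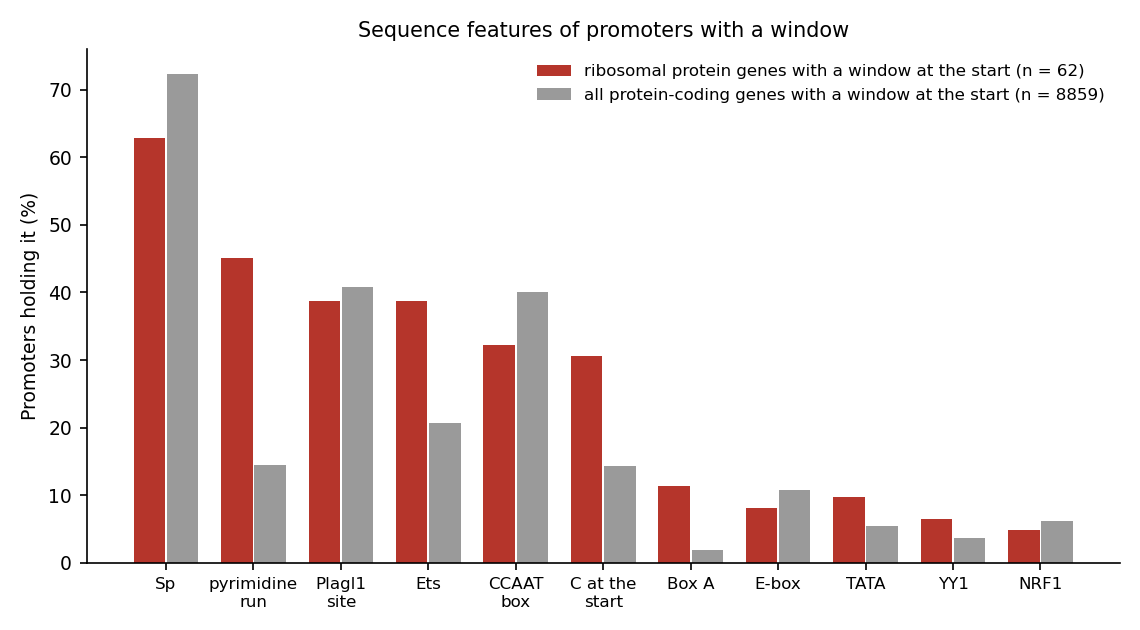
Share of promoters (%) that hold each sequence feature, for the 62 ribosomal protein genes with a window within 1 kb of the start (red) and the 8859 protein-coding genes with one (grey). The pyrimidine run stands at 45.2% beside 14.5%, the Ets motif at 38.7% beside 20.7% and Box A at 11.3% beside 1.84%, while Plagl1 site sequences stand at 38.7% beside 40.9%.

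Other genes of translation and protein turnover gave the setting. Fau, a ribosomal protein made as a fusion with a ubiquitin-like protein, and the ribosomal scaffold Rack1 each had 1 window, at 80 and 160 bp from an end, and neither held a site. Mitochondrial ribosomal protein genes had a window in 69 of 78 cases (88.5%) and a site in 22 of these 69 (31.9%), with a median GC content of 65.7%. Proteasome subunit genes had a window in 35 of 39 (89.7%) and translation initiation factors in 38 of 45 (84.4%), with median GC contents of 64.2% and 67.2%. Ribosome assembly genes had one in 51 of 53, all but Nop10 and Npm1, elongation factor and related genes in 13 of 14, all but Eef1a2, and genes of ribosomal RNA transcription in 13 of 16, all but Cd3eap, Taf1b and Ubtf. Median GC content was 64.2% for the assembly list and 63.9% for the ribosomal RNA transcription list. In all these lists it lay below the 68.2% of windows at protein-coding gene ends. The lowest median of these lists was that of the ribosomal protein genes themselves, 62.4%, followed by 62.7% for the elongation list, differences that were not tested. Sites were in 18 of the 51 assembly genes (35.3%), in alphabetical order beginning with Bop1, Bysl and Fbl, which encodes the snoRNA-guided methyltransferase fibrillarin. They were in 4 of the 13 elongation genes (Eef1a1, Eef1b2, Eef1d and Eef1g) and in 5 of the 13 genes of ribosomal RNA transcription.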

How the data were processed

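ATAC-seq was summarised by the depositors as 1 table of windows and 1 of Plagl1 motif sites, with no column per library. Per the file headers, the authors ran HOMER's annotatePeaks on a union peak list in mm10 with the Plagl1 (Zac1) motif, 100 bp to each side of each centre. Per the submitters' processing notes, the tools were MACS2 2.1.1, edgeR, Bowtie2 2.3.5, bedtools, Picard, cutadapt 1.18 and FastQC 0.11.8. Those notes, as used here, give neither their order nor the rule that chose the peaks. The deposited GC content and CpG content are each a fraction, of the bases and of the steps between bases, and were turned into percent. The deposited score is HOMER's log-odds score of a motif match, whose log base the file does not state.

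Gene intervals, without strand, were read from RefSeq's GRCm38.p6 table (chromosomes 1 to 19, X and Y), and starts, strands and promoter sequences from a RefSeq promoter table that matched 70 of 91 members. Distances are from a window's midpoint to the nearer end of the gene interval, or to the nearest listed start, whose first base is 0. No window or site was filtered out. All 5753 sites matched between the tables, and all 1512 sites that lay in a promoter had the same letters there. The assignment of windows was tested on simulated data. Intervals are exact 95% Clopper-Pearson intervals. No test was run, since the tables hold no value per library. The alternatives tried were other distances, gene sets, starts and score limits. The members and lists were chosen with earlier results of these data known. Genes were named when they had no window, more than 1 window, a site, a window shared with another protein-coding gene, or one of the 5 highest or lowest distances, GC or CpG values. Some results that this rule would name are not reported here. Up to 6 genes were named from other lists. The computation used matplotlib 3.10.9, pandas 2.3.3, scipy 1.17.1 and numpy 2.4.6 under Python 3.11.15.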

Additional observations from a re-analysis of the deposited data

How the results depend on the processing

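The count of ribosomal protein genes with a window stayed between 67 and 83 of 91 when the distance was 250 bp (67), 500 bp (75) or 3 kb (83), when the whole gene body counted (83), when a window counted for its nearest gene alone (68), or when ends and listed starts both counted (82, chosen after seeing the data), and the share of all protein-coding genes stayed between 34.7% and 53.5%. The number with a motif site, 28 of 78, was 26 of 75 at 500 bp (34.7%, beside 32.4% of all protein-coding genes with a window). At 3 kb it was 29 of 83 (34.9%, beside 35.2%), so the share there was not above that of all genes. In the usual set it was 27 of 73 (37.0%, beside 33.4%), and at listed starts 25 of 62 (40.3%, beside 32.9%). It moved most with the score limit: 14 had a site at or above the median score (17.9%, beside 18.5% of all protein-coding genes with a window) and 11 one at or above the upper quartile (14.1%, beside 9.71%). The last 2 counts are smaller because fewer sites are counted. Medians of GC, CpG and distance stayed within their 95% intervals, and the number of windows per gene within 1 SD, under the alternatives run. No paired analysis was possible because the deposited tables hold no value per library; for the same reason no library could be left out. With the depth unknown, absence from the list does not show closed chromatin. The gene table has no strand and 21 members have no listed start, so for those an end may be the finish of the gene.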
